A study of Mus musculus with 178 samples.

Results

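Blood of mice whose oral tumors responded to an antibody against PD-1 was compared between Day 17 and Day 24 after tumor cell transplantation, the last 2 of 4 bleeds. Both days fall under treatment: the Day 4 bleed came before the first dose, and the bleeds of Days 9, 17 and 24 came after it. The libraries were taken by their labels, as responder libraries of Day 24 (15) and Day 17 (14). These are 29 of the 178 libraries of the series. A further Day 17 library labelled responder was left out, because the labels of its mouse on other days say non-responder. Libraries of both days were present for 14 mice. Sorting these mice by ear tag gives their numbers, and responders 1 to 4 have 3-digit and responders 5 to 14 have 4-digit tags. The Day 24 library of 1 further mouse had no partner and did not enter the paired comparison. The mice were C57BL/6J, 6 to 8 weeks old at the start, and carried orthotopic tumors of 4MOSC1, an oral squamous carcinoma line that had been induced with a carcinogen. All of them received the anti-PD-1 antibody by intraperitoneal injection, and no untreated or control-antibody blood was analysed here for either day. A responder was a mouse whose tumor volume met the study's response criterion, and the class is an outcome, not a treatment. RNA was polyadenylated RNA of whole blood, drawn by retro-orbital bleeding, stored in TRIzol and prepared with a SMARTer mRNA-Seq kit. The time since the first bleed, the number of doses, the course of the tumor, the repeated bleeding and the preparation of the libraries all change with the day and cannot be told apart from it.

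Whole blood RNA is a mixture. Red cells and reticulocytes carry haemoglobin mRNA, platelets carry the transcripts of megakaryocytes, and neutrophils, monocytes, B cells, T cells and natural killer (NK) cells add their own. Interferons induce a broad antiviral program in most of these cells, and heat shock proteins are chaperones induced by unfolded protein. In a bulk sample fewer cells of a type and less RNA per cell cannot be told apart, so that a fall of neutrophil genes is written below as a fall of those transcripts and not of neutrophils. The labelled tissue was checked against its markers. The alpha globin gene Hba-a1, the haem synthesis enzyme gene Alas2 and the platelet factor gene Pf4 had counts in all 28 paired libraries, whereas the basal keratin genes Krt5 and Krt14 did not exceed 0.581 CPM (the counts of a gene scaled to a common library size) and the lens crystallin gene Cryaa was at 0 in all of them. The X-inactivation transcript Xist lay between 44.6 and 176 CPM in the 28 libraries and 4 Y-linked genes were at 0.

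The libraries of the 2 days differed in depth. Total counts per library spanned 26058958 to 59194857 in the Day 17 libraries and 52042238 to 63960878 in the Day 24 libraries, and 13 of 14 mice had more on Day 24 (exact sign-flip permutation test over mice, two-sided, p = 0.000366, adjusted over 6 measures p = 0.0022). Haemoglobin genes took 73.0% to 87.3% of the counts on Day 17 and 76.9% to 87.3% on Day 24. Mitochondrial transcripts made up less of the other counts on Day 24, by 0.627 percentage points on average, in 11 of 14 mice (exact permutation test, adjusted p = 0.00537). The difference was -0.855 points in the 4-digit mice, lower in 9 of 10, and -0.0555 points in the 3-digit mice, lower in 2 of 4. The number of genes with a count did not pass the same exact test (p = 0.732). The Day 24 library of responder 1 had the lowest TMM scaling factor of the 28 (0.43) and the Day 17 library of responder 4 the highest (2.28), and the latter also had the lowest haemoglobin share (73.0%) and the most genes with a count (18524). The Day 17 libraries also fell into sets by their library number. Scand1, a gene of the SCAN domain family, lay between 0.491 and 1.27 CPM in the libraries numbered 90 to 95 and between 3.56 and 4.79 CPM in 7 of the 8 numbered 96 to 103, with 0.615 CPM in number 102. The 6 mice of the first set all have 4-digit ear tags, and the 8 of the second set have 4-digit (4) or 3-digit (4) tags. Total counts of these libraries differed too, with ranges that overlapped. They were 47356498 to 56671347 in numbers 90 to 95, 26058958 to 48090794 in the 7 libraries of high Scand1 and 59194857 in number 102. Non-responder Day 17 libraries differed as well, with 0.831 to 5.35 CPM of Scand1 and 31837389 to 54189598 counts in numbers 105 to 113 and 0.0827 to 0.561 CPM and 49485662 to 71013189 counts in numbers 114 to 133. The part of depth in the results was not tested, and what the numbers stand for was not given in the sources used here. Because this split was seen in the data, the main gene lists are also given within each set of libraries. Over all genes the calls within numbers 90 to 95 were 662 higher (5.47%) and 1104 lower (9.12%) of 12106 tested, and within numbers 96 to 103 they were 342 higher (2.86%) and 548 lower (4.58%) of 11962, so that calls were fewer in the second set over all genes as well. The change was also compared between the sets over the 14 mice in edgeR. It differed at 1 gene each of the checkpoint, immunoglobulin variable, respiratory chain and spliceosome lists, and at 0 genes of every other list.

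Of 12052 genes tested, 1314 (10.9%) were higher and 1345 (11.2%) lower on Day 24 (22.1% in all) in a quasi-likelihood test of edgeR with the mouse as a block, with an adjusted p limit of 0.05, and 35.9% had an unadjusted p of at most 0.05. The changes were small: at a fold change of at least 1.5 the calls were 75 higher (0.622%) and 355 lower (2.95%). The median log2 fold change over all tested genes was -0.01. With limma the calls were 1305 higher and 1280 lower on log2 CPM scaled by TMM, but 6 higher and 15 lower on log2(TPM + 1) of the deposited TPM values, which are scaled to a total that includes haemoglobin. Few members of the main lists were called on log2(TPM + 1): 1 of the interferon-stimulated, 1 of the heat shock and 1 of the platelet genes fell, and 0 were called in their direction among NK receptor, cytotoxic effector, neutrophil granule, neutrophil receptor, classical monocyte, complement, respiratory chain, MHC class II and mature B cell genes. The medians of these main lists on that scale had the same sign as in edgeR, for example -0.26 for interferon-stimulated, -0.24 for NK receptor and 0.40 for MHC class II genes. Some other lists turned sign from edgeR to that scale. Among them were circadian (0.07 and -0.09), plasma cell (0.06 and -0.06), immunoglobulin variable (-0.03 and 0.20) and haemoglobin genes (-0.02 and 0.10). The cause of the gap in calls was not tested. Unless another set of mice or a difference between groups is named, log2 fold changes below are Day 24 minus Day 17 over the 14 mice, with the standard error (SE) for the genes described in full, and levels are in CPM scaled by TMM, with the lowest, the median and the highest of the 14 libraries of a day. Levels are compared only within a gene. For 9 genes (0.0747%) the 14 levels of one day did not overlap those of the other: Mast4, Chd8, St6gal1, Bach2, Add3, Kif21b, Map3k9 and Sp1 were higher and Scand1 lower on Day 24. These 9 were singled out after their values were seen.

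**Figure D1:**
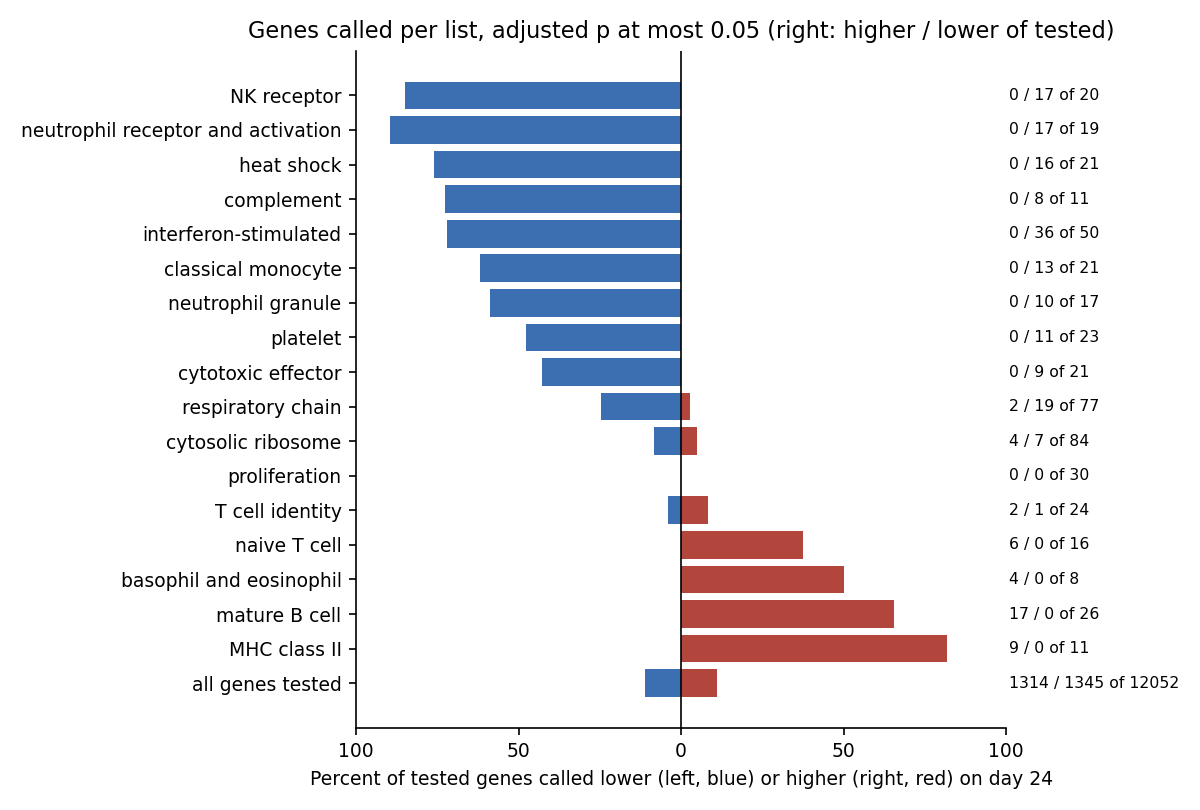
Genes called on Day 24 against Day 17 in responders, as a percentage of the tested genes of each list (x axis), with lower calls to the left in blue, higher calls to the right in red and the counts at the right margin. Over all 12052 tested genes the bars stand at 10.9% higher and 11.2% lower, whereas 9 lists at the top reach only to the left and MHC class II and mature B cell genes only to the right.

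Among the genes that rose at least 1.5-fold, the 12 with the smallest p included Pax5 and Fcer2a of the mature B cell list, and St6gal1, which is on no list. St6gal1, the sialyltransferase that makes the glycan ligand of CD22, had 21.4, 26.8 and 36.1 CPM on Day 17 and 38.5, 41.8 and 52.5 CPM on Day 24 (log2 fold change 0.63, SE 0.08, adjusted p = 0.000224, higher in 14 of 14 mice). Pax5, the transcription factor that keeps B cell identity, went from 39.9, 50.6 and 75.4 CPM to 70.1, 81.2 and 96.6 CPM (0.60, SE 0.09, adjusted p = 0.000461, 14 of 14). Fcer2a, the low-affinity IgE receptor of naive B cells, went from 24.5, 31.3 and 47.2 CPM to 39.1, 50.7 and 59.4 CPM (0.63, SE 0.09, adjusted p = 0.000415, 13 of 14). The Day 24 minimum of Pax5 lay below the Day 17 maximum, and so did that of Fcer2a, whereas the levels of St6gal1 did not overlap. Over the mice of 4-digit and of 3-digit tags, Pax5 had 0.78 and 0.19 and Fcer2a 0.80 and 0.21. The difference between the tag series passed the threshold in edgeR for Pax5 (adjusted p = 0.0286) and Fcer2a (adjusted p = 0.0232).

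Mast4, a gene of a large serine/threonine kinase, had the smallest p of these 12. The gene lies on the minus strand of chromosome 13 at 102732486 to 103334497 (GRCm38). It had 3.25, 3.69 and 4.48 CPM on Day 17 and 4.84, 5.67 and 6.55 CPM on Day 24 (0.62, SE 0.06, adjusted p = 9.91e-05, 14 of 14). Alox15, a lipoxygenase of eosinophils and some macrophages, showed the highest fold change of the 12 (1.34, SE 0.20, adjusted p = 0.000521, 13 of 14), from 0.602, 1.85 and 8.48 CPM to 1.6, 4.85 and 12.9 CPM. The cholesterol exporter gene Abca1 rose by 0.59 (SE 0.09) in 14 of 14 mice and the heparan sulfate sulfatase gene Sgsh by 0.62 (SE 0.07) in 13 of 14. Crisp3, a gene of a cysteine-rich secretory protein, rose by 1.12 (SE 0.17) at low levels, with a median of 0.407 CPM on Day 17 and 0.872 CPM on Day 24. The other genes of this group were Angel1, Rgl1, Stac2 and Sema5a, with log2 fold changes between 0.58 and 0.69.

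Among those that fell by the same factor, the 12 with the smallest p included 3 of NK cells. Gzma, a granule protease of NK and cytotoxic T cells, had 10.7, 18.3 and 24.3 CPM on Day 17 and 7.79, 11.2 and 13.9 CPM on Day 24 (-0.61, SE 0.07, adjusted p = 0.00011, lower in 14 of 14 mice). Klre1, an NK cell lectin-like receptor, went from 1.28, 1.89 and 3.5 CPM to 0.846, 1.04 and 1.64 CPM (-0.87, SE 0.10, adjusted p = 0.000115, lower in all 14). Klra8, the activating receptor Ly49H, went from 1.5, 2.01 and 3.33 CPM to 0.688, 1.13 and 1.54 CPM (-0.88). Every one of these 3 fell in each mouse, although the ranges of the 2 days overlapped. The interferon-induced chaperone gene Rtp4 fell in 14 of 14 mice from 4.82, 8.00 and 14.2 CPM to 3.04, 3.83 and 6.16 CPM (-0.96, SE 0.11, adjusted p = 0.000115).

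Gp1bb, a subunit of the von Willebrand factor receptor of platelets, fell from 5.34, 11.4 and 29.7 CPM to 2.34, 5.97 and 10.0 CPM (-1.19, SE 0.13, adjusted p = 9.91e-05, lower in 14 of 14). Pdgfa, a platelet-derived growth factor gene, fell by 1.07 on the log2 scale (SE 0.12) and Mefv, the pyrin gene of neutrophils and monocytes, by 1.00 (SE 0.13), each in 14 of 14 mice. The histone variant gene H2afj fell by 1.12, Lman2l by 0.69, Cacybp by 0.61 and Tppp3 by 1.45 on the same scale. Scand1 had the lowest fold change of the group (-3.02, SE 0.33, adjusted p = 9.91e-05), from 0.491, 2.41 and 4.79 CPM to 0.054, 0.232 and 0.414 CPM. Its change was -1.99 (adjusted p = 0.0026) where the Day 17 library was numbered 90 to 95 and -3.64 (adjusted p = 0.00084) where it was numbered 96 to 103. The difference between these changes did not pass the threshold in edgeR (adjusted p = 0.175). Scand1 lies on the minus strand of chromosome 2 at 156311847 to 156312704 (GRCm38).

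**Figure D2:**
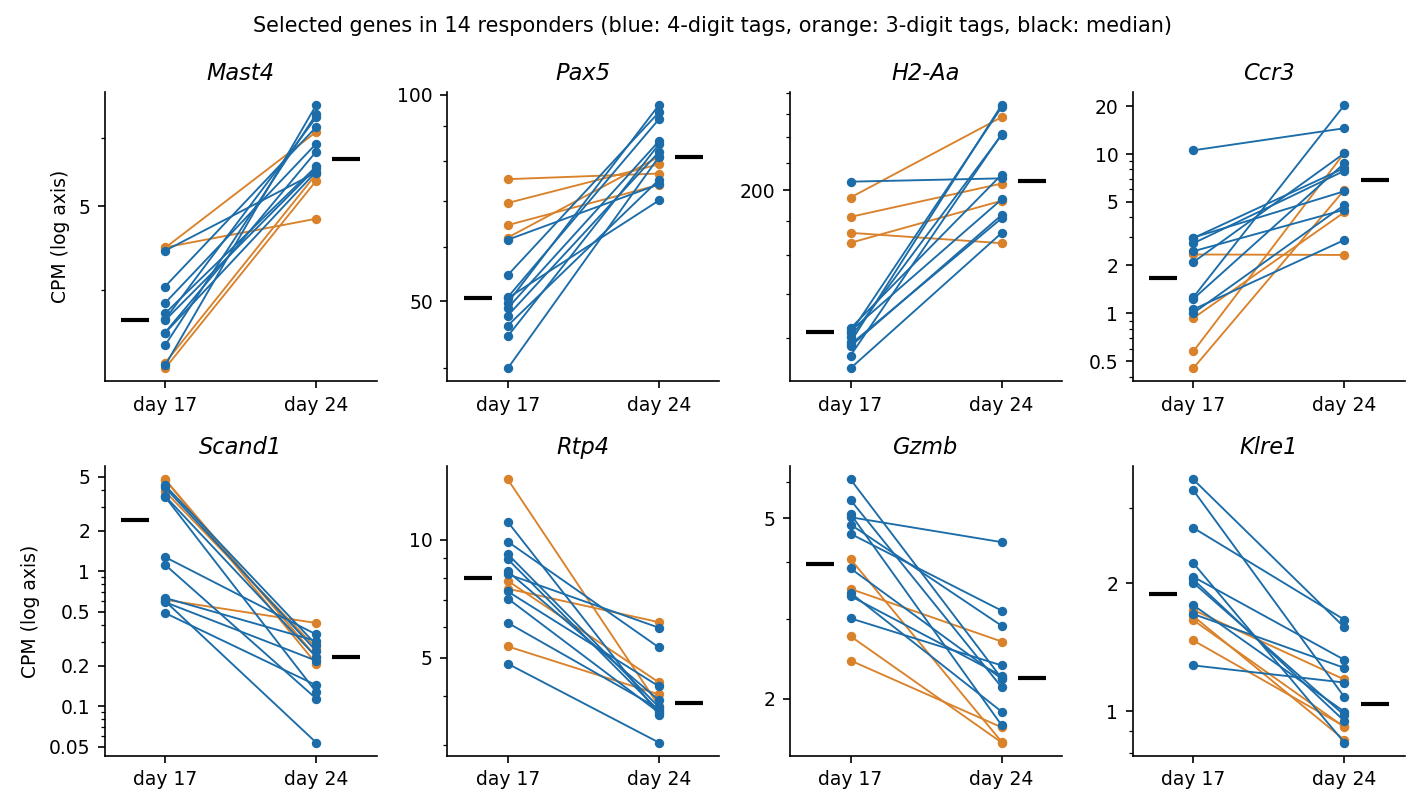
Levels of 8 named genes in each of the 14 responder mice on Day 17 and Day 24, as CPM on a log axis (y), with a line joining the libraries of a mouse, blue for 4-digit and orange for 3-digit ear tags and black bars for medians. Klre1 and Rtp4 fall and Mast4 and Pax5 rise in 14 of 14 mice, and Scand1 starts from separate high and low levels on Day 17.

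Interferon-stimulated genes fell as a group. Of 50 tested, 36 fell, 0 rose and 14 were not called, with a median log2 fold change of -0.45, beside 11.2% lower over all genes. A list score, the mean log2(CPM + 0.5) over members, fell between the bleeds in 13 of 14 mice: it spanned 3.05 to 3.73 with a median of 3.41 on Day 17 and 2.87 to 3.32 with a median of 3.02 on Day 24. Oas2, a sensor of double-stranded RNA, had 2.17, 7.40 and 12.3 CPM on Day 17 and 1.72, 3.12 and 6.00 CPM on Day 24 (-1.18, SE 0.19, adjusted p = 0.000648, lower in 13 of 14). Oas1a of the same family had 3.35, 5.37 and 9.06 CPM and then 2.54, 3.10 and 4.43 CPM (-0.78, SE 0.13, adjusted p = 0.000976). Bst2, the tetherin that holds budding virus on the cell, had 3.12, 4.14 and 5.83 CPM and then 2.44, 3.04 and 3.69 CPM (-0.46, SE 0.08, adjusted p = 0.000935, lower in 14 of 14). The pro-apoptotic gene Xaf1 fell by 0.58 and Ifi35 by 0.41 on the log2 scale. Not all members followed: Rsad2, the viperin gene, had a log2 fold change of 0.00 (SE 0.25, adjusted p = 0.993), and Irf7, the factor that amplifies type I interferon, one of -0.45 that was not called (adjusted p = 0.0735). Rsad2 and Irf7 were picked after their values were seen. Within the sets of Day 17 libraries the list's median was -0.53 with 33 falls (numbers 90 to 95, beside 9.12% lower over all genes) and -0.36 with 15 falls (numbers 96 to 103, beside 4.58%).

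Promoters of 3 interferon-stimulated genes that fell are shown because they hold the interferon response element as searched here, a pair of GAAA with any 2 bases between them, on either strand. They are the 150 bases before an annotated start in RefSeq GRCm38.p6, printed 5′ to 3′ on the strand of the gene, with the matching bases in capitals. Trim30a has 2 promoters in that annotation, and the other is not shown. Matches overlap in Bst2 and Oas1a, so that the capitals there cover 3 units of GAAA. The match begins 130 bases before the start in Bst2, 20 in Oas1a and 36 in Trim30a, where it lies on the opposite strand.
Bst2, chr8:71537473-71537622 (minus strand): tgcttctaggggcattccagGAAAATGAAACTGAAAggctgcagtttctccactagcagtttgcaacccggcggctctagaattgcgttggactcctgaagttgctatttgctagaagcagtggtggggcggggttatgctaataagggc
Oas1a, chr5:120907526-120907675 (minus strand): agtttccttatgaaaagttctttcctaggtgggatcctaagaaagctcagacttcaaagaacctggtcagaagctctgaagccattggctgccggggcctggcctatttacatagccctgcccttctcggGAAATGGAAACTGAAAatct
Trim30a, chr7:104465194-104465343 (minus strand): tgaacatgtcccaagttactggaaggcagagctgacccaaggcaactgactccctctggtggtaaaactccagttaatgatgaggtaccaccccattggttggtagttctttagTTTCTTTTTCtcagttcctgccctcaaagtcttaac
Of the 50 list members, 38 were matched to a promoter in that table, and 24 of them held the motif within 250 bases before and 50 after the start. Among the 26 matched members that fell, 18 held it. Among all 27025 genes of that table the share was 3.99%, and among its 32851 promoters 3.44%. Trim30a, a restraint on innate signalling, had 22.7, 30.4 and 38.6 CPM on Day 17 and 18.2, 22.7 and 29.2 CPM on Day 24 (-0.39, adjusted p = 0.000991). Trim30a was picked for its promoter. A match describes the letters in the window and was not tested as a binding site.

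NK receptor transcripts fell in 17 of 20 tested genes (85.0%, beside 11.2% lower over all genes), with 0 rises and a median of -0.48, and the list score was lower on Day 24 in 14 of 14 mice. The score lay between 1.18 and 1.71 on Day 17 and between 0.90 and 1.36 on Day 24. Ncr1, the NKp46 receptor that marks NK cells, had 3.16, 4.34 and 5.17 CPM on Day 17 and 1.6, 2.96 and 4.33 CPM on Day 24 (-0.49, SE 0.08, adjusted p = 0.000935, lower in 14 of 14). Klrc2, the NKG2C receptor, had 1.59, 2.85 and 3.65 CPM and then 1.06, 1.63 and 2.24 CPM (-0.70, SE 0.11). The NKG2D receptor gene Klrk1 fell by 0.47 and the Ly49G gene Klra7 by 0.49 on the log2 scale. Genes of the Ly49 and NKG2 families are near-identical in parts, and how the authors' counting shared reads among them is not given in the sources used here. The list's median was -0.34 with 8 falls and -0.55 with 8 falls in the sets numbered 90 to 95 and 96 to 103.

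Cytotoxic effector genes fell in 9 of 21 (42.9%, beside 11.2% lower over all genes), with 0 rises, and their score was lower in 14 of 14 mice. Gzmb, the protease that cleaves caspases in target cells, had 2.43, 3.97 and 6.08 CPM on Day 17 and 1.6, 2.22 and 4.43 CPM on Day 24 (-0.82, SE 0.11, adjusted p = 0.000306, lower in 14 of 14). The perforin gene Prf1 fell by 0.29, the granule protein gene Nkg7 by 0.29, Tbx21, the T-bet transcription factor gene, by 0.42 and the egress receptor gene S1pr5 by 0.73 on the log2 scale. Cxcr3, the chemokine receptor of effector T cells, chosen after its values were seen, had a log2 fold change of 0.15 and was not called (adjusted p = 0.313). All of the fallen genes of this list that are named here are shared with NK cells. The list gave 4 falls where the Day 17 library was numbered 90 to 95 and 7 in the other set, with medians of -0.26 and -0.27. T cell identity genes gave 2 rises and 1 fall among 24 (12.5%, beside 22.1% over all genes), with a median of -0.02. The CD3 chain genes Cd3e and Cd3d, chosen after their values were seen, had log2 fold changes of 0.07 and -0.03 and were not called.

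Naive T cell genes rose in 6 of 16 with 0 falls (37.5%, beside 10.9% higher over all genes). Of the 16, 10 had a positive log2 fold change, the median was 0.11, and the score was higher in 9 of 14 mice. The list had 5 rises and 1 fall in Day 17 libraries 90 to 95 and 4 rises in 96 to 103. Among the genes that rose was S1pr1, the receptor for exit from lymph nodes. It had 29.3, 33.9 and 41.5 CPM on Day 17 and 34.3, 45.3 and 50.8 CPM on Day 24 (0.36, SE 0.06, adjusted p = 0.000521, 14 of 14). Foxp1, a quiescence factor, rose by 0.41 and the lymph node homing receptor gene Ccr7 by 0.33. B cells also express S1pr1, Foxp1 and Ccr7. In the checkpoint list 2 of 20 rose and 2 fell, a share of 20.0% that lies below the 22.1% over all genes. Btla, an inhibitory receptor of B and T cells, went from 30.0, 35.2 and 58.3 CPM to 41.3, 52.3 and 63.4 CPM (0.47, SE 0.08, adjusted p = 0.00125), and Havcr2, the TIM-3 gene, fell by 0.66 on the log2 scale (adjusted p = 0.0141). Btla had 0.67 in Day 17 libraries 90 to 95 and 0.32 (adjusted p = 0.0873) in 96 to 103, a difference that did not pass in edgeR (adjusted p = 0.263). T cell receptor variable segments gave 2 falls among 14 tested, which is 14.3% beside 11.2% lower over all genes, with a median of 0.14 and 0 falls in the first set of Day 17 libraries and -0.62 and 4 falls in the second. Proliferation genes gave 0 calls of 30 in edgeR and 0 in DESeq2, with 2 at an unadjusted p of at most 0.05 and 4 falls in the set numbered 90 to 95, and the Ki-67 gene Mki67, chosen after its values were seen, had a log2 fold change of 0.14 (adjusted p = 0.631).

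**Figure D3:**
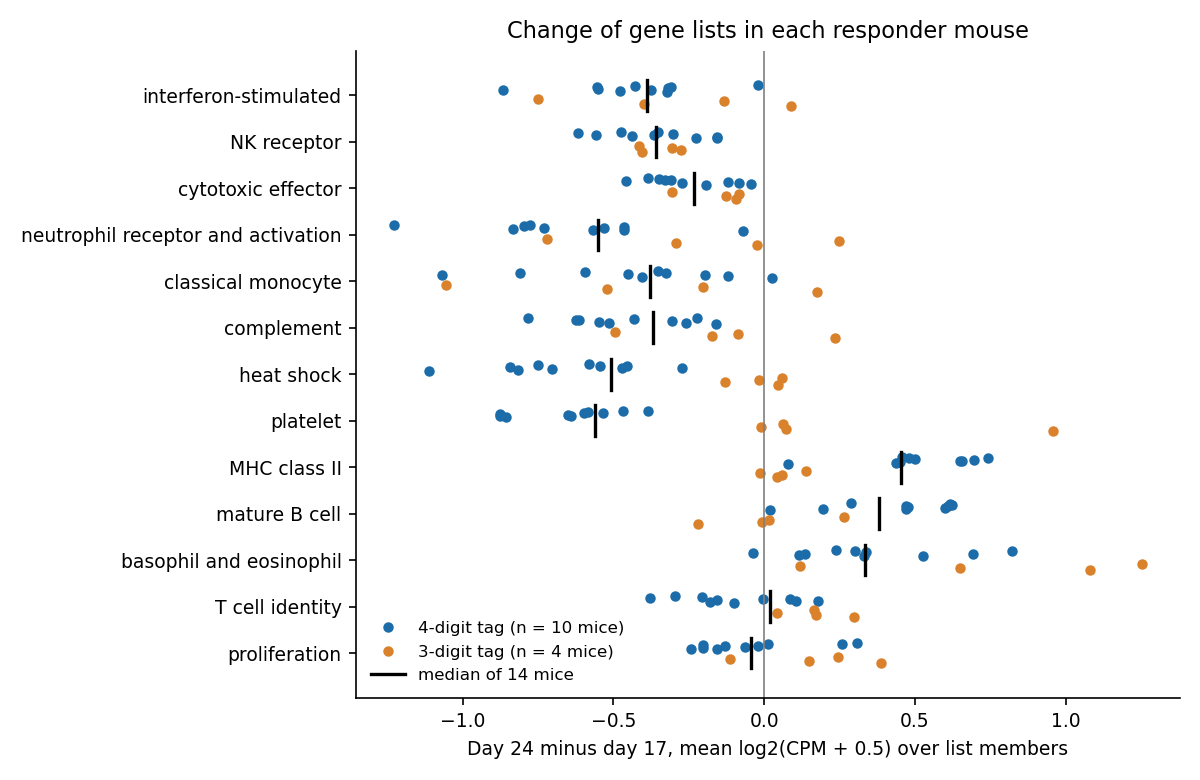
Change of the list score from Day 17 to Day 24, as the difference in mean log2(CPM + 0.5), with 1 point for each of 14 responder mice (x axis), blue for 4-digit and orange for 3-digit ear tags and a black bar for the median. NK receptor and cytotoxic effector scores lie below 0 in 14 of 14 mice, and the MHC class II score lies above 0 in 13 of 14, with all 4 orange points near 0.

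Of 19 neutrophil receptor and activation genes 17 fell, of 17 neutrophil granule genes 10 fell, of 21 classical monocyte genes 13 fell and of 11 complement genes 8 fell, with 0 rises in the 4 lists, beside 11.2% lower over all genes, and medians of -0.64, -0.64, -0.47 and -0.47. Their scores were lower on Day 24 in 13, 11, 12 and 13 of 14 mice. Clec4d, a receptor for fungal and mycobacterial glycolipids, had 4.01, 8.30 and 15.7 CPM on Day 17 and 2.83, 4.59 and 7.51 CPM on Day 24 (-0.86, adjusted p = 0.000985). Trem1, which amplifies inflammatory signalling, had 2.60, 3.80 and 6.90 CPM and then 1.55, 2.02 and 4.49 CPM (-0.89, SE 0.15, adjusted p = 0.000935), and the decoy receptor gene Il1r2 fell by 0.88 on the log2 scale. The calgranulin gene S100a9 had 63.6, 133 and 304.01 CPM and then 43.5, 77.3 and 161 CPM (-0.80, adjusted p = 0.00829), with S100a8 at -0.81 and the granule gene Ngp at -1.05. S100a8 had -0.22 (adjusted p = 0.276) in Day 17 libraries 90 to 95 and -1.28 (adjusted p = 0.0293) in 96 to 103. The difference between the sets did not pass the threshold in edgeR (adjusted p = 0.182). The lactoferrin gene Ltf, of the same granule class, had a log2 fold change of 0.07 and was not called (adjusted p = 0.877), and was named after its value was seen. Without responder 2 the granule list had 6 falls. Within the sets of Day 17 libraries the receptor list had medians of -0.64 and -0.60 and the granule list of -0.38 and -0.57. The falls were 11 and 5 in the receptor list and 5 and 4 in the granule list.

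Among monocyte genes, Vcan, the versican gene of classical monocytes, had 1.31, 3.15 and 6.12 CPM on Day 17 and 0.272, 0.932 and 3.5 CPM on Day 24 (-1.46, adjusted p = 0.0021). The endotoxin co-receptor gene Cd14 fell by 0.91, the lectin gene Clec4a3 by 0.85 and Ms4a6c by 0.65 on the log2 scale. Ccr2, the receptor that takes monocytes out of the marrow, was not called (-0.35, adjusted p = 0.0658, named after its value was seen). Non-classical monocyte genes gave 1 rise and 2 falls among 14, which is 21.4% beside 22.1% over all genes. In the complement list C1qb, a chain of the first component, fell by 1.46, the alternative pathway factor gene Cfb by 1.43, the central component gene C3 by 0.69 and the properdin gene Cfp by 0.46 on the log2 scale. C1qb was at low levels, with medians of 0.517 and 0.127 CPM, and Cfb had 0.188, 0.767 and 2.84 CPM on Day 17 and 0.179, 0.313 and 0.653 CPM on Day 24. In the sets numbered 90 to 95 and 96 to 103 the classical monocyte list had 3 and 9 falls (medians -0.38 and -0.59) and the complement list 5 and 1 (medians -0.42 and -0.50).

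Heat shock genes fell in 16 of 21 (76.2%, beside 11.2% lower over all genes), with 0 rises and a median of -0.49, and the score was lower in 12 of 14 mice. The list's median was -0.63 over the mice of 4-digit tags and -0.07 over the 4 of 3-digit tags. It spanned 3.02 to 4.15 on Day 17 and 2.96 to 3.56 on Day 24. Dnaja1, an Hsp40 co-chaperone, had 14.6, 32.5 and 41.7 CPM on Day 17 and 11.4, 14.6 and 28.4 CPM on Day 24 (-0.88, adjusted p = 0.000535). The inducible Hsp70 genes Hspa1a and Hspa1b had log2 fold changes of -1.82 (adjusted p = 0.0025) and -1.75 (adjusted p = 0.00194), each lower in 12 of 14 mice, and Hsph1 of the Hsp110 family one of -1.09. Hspa1a and Hspa1b are near-identical copies, so that their counts are not independent. The co-chaperone genes Stip1, Chordc1 and Fkbp4 fell by 0.79, 0.60 and 0.57 on the log2 scale. Hspa1a had 0.0376, 1.01 and 2.04 CPM on Day 17 and 0.061, 0.210 and 0.504 CPM on Day 24, and its Day 17 libraries thus spanned from below to above the whole Day 24 range. The list's median was -0.69 with 17 falls in the set numbered 90 to 95 and -0.29 with 6 falls in the set numbered 96 to 103, beside 9.12% and 4.58% lower over all genes. Hspa1a, Hspa1b, Hsph1 and Hspe1 were named after their values were seen.

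The chaperonin genes Hspd1 and Hspe1 lie head to head, and their promoters are shown because both hold the same stretch of bases matching the heat shock element as searched here, 3 units that alternate between GAA and TTC with any 2 bases between neighbours, on either strand. The sequences are printed as above, with overlapping matches that together cover 4 units in capitals. Hspd1 has 2 promoters in that annotation, and the other is not shown. The stretch begins 144 bases before the start of Hspd1 and 89 before that of Hspe1.
Hspd1, chr1:55087933-55088082 (minus strand): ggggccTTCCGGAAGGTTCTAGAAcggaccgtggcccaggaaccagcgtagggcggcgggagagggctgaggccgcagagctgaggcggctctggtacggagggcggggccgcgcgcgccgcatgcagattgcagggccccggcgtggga
Hspe1, chr1:55087998-55088147 (plus strand): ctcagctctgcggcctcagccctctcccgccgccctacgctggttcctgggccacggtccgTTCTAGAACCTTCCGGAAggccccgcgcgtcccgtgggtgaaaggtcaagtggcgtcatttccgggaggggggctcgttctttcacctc
Hspd1 had 9.95, 14.0 and 21.2 CPM on Day 17 and 8.30, 10.5 and 14.6 CPM on Day 24 (-0.40, adjusted p = 0.00104), and Hspe1 had 3.69, 5.43 and 8.21 CPM and then 3.38, 4.08 and 4.85 CPM (-0.49, adjusted p = 0.00123). Of the 17 list members matched to a promoter 13 fell and 4 held the element, beside 0.662% of all genes and 0.603% of all promoters in the table. All 4 were among the 13, and they include Hspd1 and Hspe1, which share the stretch. Whether the element goes with the fall was not tested.

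In the ATF4 stress list 6 of 18 fell and 0 rose (33.3%, beside 11.2% lower over all genes). Its median was -0.27 over the 4-digit mice, with a higher score on Day 24 in 1 of 10, and -0.01 over the 3-digit mice, with a higher score in 4 of 4. Nupr1, a stress-induced chromatin protein, fell in 14 of 14 mice from 0.767, 1.51 and 4.35 CPM to 0.381, 0.686 and 1.15 CPM (-1.29, SE 0.18, adjusted p = 0.000419). Cebpb, a transcription factor of emergency granulopoiesis, had 0.681, 4.39 and 9.57 CPM on Day 17 and 0.413, 0.824 and 1.19 CPM on Day 24 (-1.99, SE 0.37, adjusted p = 0.00149). Like Scand1, it moved with the library number: its Day 17 levels were 0.681 to 4.05 CPM in numbers 90 to 95 and 4.74 to 9.57 CPM in 7 of the libraries numbered 96 to 103. Its change was -0.73 (adjusted p = 0.084) in the first set and -3.00 (adjusted p = 0.0028) in the second, a difference that did not pass the threshold (adjusted p = 0.062). The ATF4 list gave 3 falls in each set, with 1 rise in the second.

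Platelet transcripts fell in 11 of 23 genes (47.8%, beside 11.2% lower over all genes) with 0 rises and a median of -0.39, and the score was lower in 11 of 14 mice. Pf4, the platelet factor 4 gene, had 45.4, 73.2 and 127 CPM on Day 17 and 26.5, 52.4 and 105 CPM on Day 24 (-0.61, adjusted p = 0.00105). Nrgn, neurogranin, fell by 0.80 on the log2 scale. The chemokine gene Ppbp (-0.29, adjusted p = 0.131) and the integrin gene Itga2b (-0.23, adjusted p = 0.244), named after their values were seen, were not called. The median of the list differed in sign between the tag series: it was -0.63 over the 10 mice of 4-digit tags and 0.29 over the 4 mice of 3-digit tags. It was -0.73 with 23 falls where the Day 17 library was numbered 90 to 95 and -0.01 with 2 falls in the other set. Without responder 1 the falls were 20 of 23 (median -0.48), and without the mouse as a block 5 of 23 (median -0.40). Red cell maturation genes gave 0 rises and 1 fall among 29 (3.45%, beside 22.1% called over all genes), with medians of opposite sign in the tag series (-0.25 over 4-digit and 0.91 over 3-digit mice) and in the sets of Day 17 libraries, where 11 fell (median -0.54) in numbers 90 to 95 and 0 fell (median 0.56) in numbers 96 to 103. The change differed between the sets of libraries at 0 of these 29 and 0 of the 23 platelet genes in edgeR. In the 14 pairs 5 haemoglobin genes gave 0 calls in edgeR and DESeq2, with 0 at an unadjusted p of at most 0.05.

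Genes of antigen presentation by MHC class II rose in 9 of 11, with 0 falls and a median of 0.45, beside 10.9% higher over all genes. The score was higher on Day 24 in 13 of 14 mice, with 5.39 to 6.03 on Day 17 and 5.82 to 6.24 on Day 24. Ciita, the transactivator of these genes, had 27.1, 30.5 and 43.1 CPM on Day 17 and 39.5, 44.1 and 57.3 CPM on Day 24 (0.47, SE 0.07, adjusted p = 0.000426, 14 of 14). H2-Aa, the alpha chain of I-A, had 108, 123 and 206 CPM and then 167, 207 and 268 CPM (0.61, SE 0.11, adjusted p = 0.00135, 13 of 14). H2-Eb1 rose by 0.57, the peptide-loading genes H2-DMa and H2-DMb2 by 0.44 and 0.45, and H2-Oa, which restrains H2-DM in B cells, by 0.65. MHC class I gave 5 falls among 19 and 0 rises (26.3%, beside 11.2% lower over all genes), with 2 falls in the Day 17 libraries 90 to 95 and 0 in 96 to 103. The light chain gene B2m had 270, 346 and 457 CPM on Day 17 and 213, 248 and 377 CPM on Day 24 (-0.41, SE 0.09, adjusted p = 0.00338, lower in 13 of 14), and was not called in the second set (adjusted p = 0.119). The difference between the sets did not pass for B2m in edgeR (adjusted p = 0.834).

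Mature B cell genes rose in 17 of 26 (65.4%, beside 10.9% higher over all genes) with 0 falls, and all 26 had a positive log2 fold change, with a median of 0.38. The score was higher in 12 of 14 mice. Bach2, the repressor that keeps B cells from becoming plasma cells, had 18.6, 23.5 and 30.7 CPM on Day 17 and 30.8, 33.6 and 40.2 CPM on Day 24 (0.52, SE 0.08, adjusted p = 0.00049, 14 of 14). The early B cell factor gene Ebf1 rose by 0.50, the exchange factor gene Ralgps2 by 0.46 and the inhibitory receptor gene Cd22 by 0.43. Ms4a1, the gene of the B cell surface antigen CD20, did not pass the test, with 59.9, 75.3 and 115 CPM on Day 17 and 68.4, 86.5 and 118 CPM on Day 24 (0.18, adjusted p = 0.167). It was named after its values were seen, and the difference between it and Bach2 was not tested.

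Of 11 immunoglobulin constant genes, 2 rose and 0 fell (18.2%, beside 10.9% higher and 22.1% called over all genes). Ighd, the IgD heavy chain gene, had 75.0, 88.0 and 151 CPM on Day 17 and 130, 148 and 175 CPM on Day 24 (0.62, SE 0.10, adjusted p = 0.000935, 13 of 14), and Ighm, the IgM gene, rose by 0.31 (adjusted p = 0.0245). Ighm passed in neither set of Day 17 libraries (adjusted p = 0.187 and 0.118), and Ighg2b, an IgG gene that was not called in the 14 pairs (adjusted p = 0.115), passed in the set numbered 90 to 95 (0.80, adjusted p = 0.00528). The difference between the sets did not pass for Ighg2b in edgeR (adjusted p = 0.15). The kappa constant gene Igkc had a log2 fold change of 0.09 (adjusted p = 0.552). Of 100 variable segments tested 1 rose (Ighv1-50, 0.55) and 2 fell (Igkv14-100, -0.82, and Igkv3-10, -0.56), which is 3.00% beside 22.1% over all genes. The medians of the sets of Day 17 libraries had opposite signs, with 0.39 and 3 rises in numbers 90 to 95 and -0.34 and 9 falls in numbers 96 to 103. So had those of the tag series, with 0.16 (4-digit) and -0.49 (3-digit). The change differed between the sets of libraries at 1 of the 100 segments in edgeR. Plasma cell genes gave 4 rises and 6 falls among 19 (52.6%, beside the same 22.1%), with Xbp1, which drives antibody secretion, at -0.41. Irf4, which B cells also express, rose by 0.46 (adjusted p = 0.000552), whereas the chain joining antibody multimers, Jchain, had a log2 fold change of -0.06 (adjusted p = 0.83, named after its value was seen). Over the mice of 4-digit tags the medians of the MHC class II and mature B cell lists were 0.60 and 0.52, and over the 4 mice of 3-digit tags 0.07 and 0.00. They were 0.58 and 0.49 where the Day 17 library was numbered 90 to 95, and 0.39 and 0.27 in the other set, with 8 and 2 rises of MHC class II genes and 19 and 6 of mature B cell genes, beside 5.47% and 2.86% higher over all genes.

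Of 8 basophil and eosinophil genes tested 4 rose and 0 fell (50.0%, beside 10.9% higher over all genes), 4 of the 8 had a positive log2 fold change, and the score was higher in 13 of 14 mice. Ccr3, the eotaxin receptor, had 0.451, 1.68 and 10.5 CPM on Day 17 and 2.32, 6.90 and 20.3 CPM on Day 24 (1.92, SE 0.31, adjusted p = 0.000738, 13 of 14). Siglecf, an inhibitory lectin of eosinophils, had 0.301, 1.14 and 3.31 CPM and then 0.628, 2.67 and 4.62 CPM (0.99, SE 0.16, adjusted p = 0.000834, 14 of 14). Il5ra, the receptor for the eosinophil growth factor IL-5, had 1.23, 1.75 and 2.84 CPM and then 2.10, 3.27 and 4.15 CPM (0.80, SE 0.13, adjusted p = 0.000716, 12 of 14). The fourth was Alox15, described above. Genes of basophils and mast cells did not pass the test in the 14 pairs: Gata2 had a log2 fold change of -0.34 (adjusted p = 0.147) and Ms4a2, a chain of the high-affinity IgE receptor, one of -0.15 (adjusted p = 0.765). The list gave 4 rises in each set of Day 17 libraries, with 2 falls in the set numbered 90 to 95. Gata2 was one of those falls (-0.76, adjusted p = 0.000802), and had 0.02 (adjusted p = 0.962) in the set numbered 96 to 103. The difference between the sets did not pass for Gata2 in edgeR (adjusted p = 0.197).

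Cytosolic ribosome genes gave 4 rises and 7 falls among 84, with a median of 0.02. The short subunit genes Rps29 and Rpl38 fell by 0.77 and 0.62 on the log2 scale and Rpl3 rose by 0.30. In Day 17 libraries 90 to 95 and 96 to 103, Rps29 had -0.23 (adjusted p = 0.297) and -1.17 (adjusted p = 0.012), and Rpl38 -0.28 (adjusted p = 0.155) and -0.86 (adjusted p = 0.0154). The difference between the sets passed in edgeR for neither Rps29 (adjusted p = 0.129) nor Rpl38 (adjusted p = 0.234). Respiratory chain genes gave 2 rises and 19 falls among 77 (median -0.17), with Cox5a, a subunit of cytochrome oxidase, at -0.59 and Ndufa3 of complex I at -0.70, and mitochondrial ribosome genes 0 rises and 8 falls among 77, with medians of 0.06 in Day 17 libraries 90 to 95 and -0.14 in 96 to 103. The calls made up 27.3% of the respiratory chain list, beside 22.1% over all genes. Its falls numbered 18 of 77 (median -0.27) in Day 17 libraries 96 to 103 and 6 (median -0.04) in 90 to 95, and 11, with 4 rises and a median of -0.07, once the trend on transcript length described below was removed. Spliceosome genes gave 5 rises and 4 falls among 39, with the core factor gene Prpf8 at 0.34 and the serine/arginine-rich factor gene Srsf7 at -0.50. Cholesterol synthesis genes gave 1 rise among 20, that of the master regulator Srebf2 (0.40, adjusted p = 0.000419, 14 of 14). Beside the same 22.1% (10.9% higher and 11.2% lower), the calls made up 13.1% of cytosolic ribosome, 10.4% of mitochondrial ribosome, 23.1% of spliceosome and 5.00% of cholesterol synthesis genes. They made up 25.0% of circadian, 11.8% of glycolysis, 20.0% of immediate early and 50.0% of dendritic cell genes. Circadian and glucocorticoid genes gave 4 rises and 0 falls among 16, glycolysis and hypoxia genes 0 rises and 2 falls among 17 with the collagen hydroxylase gene P4ha1 at -0.61, immediate early genes 1 rise and 4 falls among 25, and dendritic cell genes 3 rises and 2 falls among 10. Epithelial genes gave 1 rise among 7 tested, that of Sfn (0.30), which is 14.3% beside 10.9% higher over all genes.

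The direction of the calls changed with the length of the transcript. With the genes divided into 5 groups of nearly equal size by length, the shortest group, 204 to 1877 bases, had opposite counts to the longest. In the shortest group 78 rose and 441 fell (median -0.11), and in the longest group, 5151 to 123179 bases, 618 rose and 140 fell (median 0.08). The same order was seen within each set of Day 17 libraries, with 47 rises and 267 falls against 256 and 163 in numbers 90 to 95, and 27 and 259 against 189 and 35 in numbers 96 to 103. Groups by GC content showed no such order, with 204 rises and 279 falls in the lowest and 266 and 269 in the highest. With the trend on length removed, 1207 genes rose and 1093 fell, and 1887 of the 2659 calls were kept. The lists then gave 33 falls of interferon-stimulated genes (median -0.41), 12 of NK receptor genes (-0.36), 8 of platelet genes (-0.32) and 7 of neutrophil granule genes (-0.55). Falls numbered 6 among cytotoxic effector genes (-0.17) and 11 among respiratory chain genes (-0.07). Rises numbered 9 among MHC class II (0.55) and 17 among mature B cell genes (0.40). What in the libraries or the blood moves with transcript length was not tested.

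**Figure D4:**
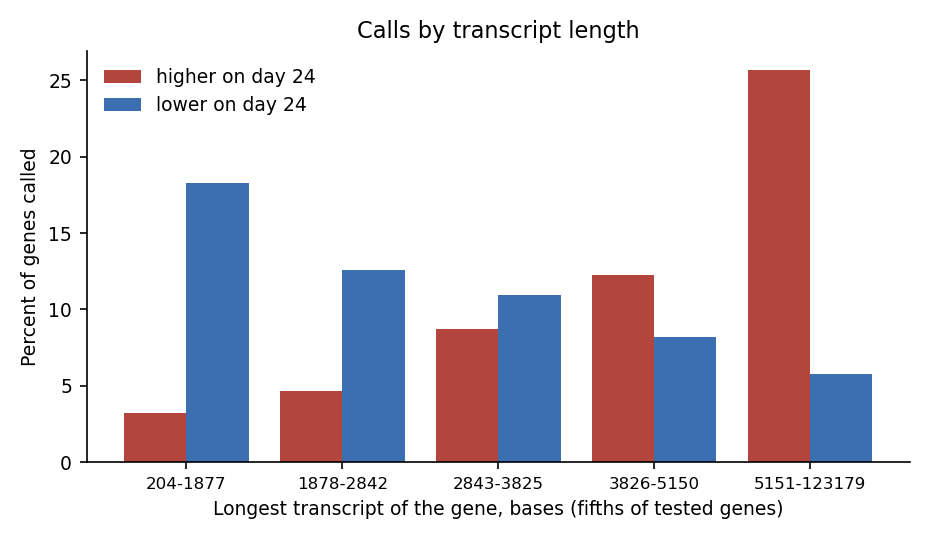
Percentage of tested genes called higher (red) and lower (blue) on Day 24 in responders (y axis) in each of 5 groups of genes by the length of their longest transcript in bases (x axis). From the shortest to the longest group lower calls go from 18.3% to 5.81% and higher calls from 3.23% to 25.6%.

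Over all 4 days the lists did not move in one way. The median score of NK receptor genes was 1.5 on Day 4, 1.64 on Day 9, 1.54 on Day 17 and 1.11 on Day 24, so that Day 24 was below the pre-treatment day. The interferon-stimulated score was 3.20, 3.5, 3.41 and 3.04. Classical monocyte genes had 3.40, 4.00, 3.63 and 3.10, and neutrophil receptor genes 2.76, 3.21, 3.19 and 2.73, and in both lists Day 24 had the lowest median. Day 17 was the highest of the 4 days for heat shock genes (3.33, 3.22, 3.78 and 3.17) and the lowest for MHC class II (5.92, 5.73, 5.51 and 6.03) and for basophil and eosinophil genes (1.19, 1.32, 0.73 and 1.31). The first 2 of these patterns were those of the 4-digit mice. Their heat shock medians were 3.33, 3.22, 3.84 and 3.17, and those of the 3-digit mice 3.44, 3.18, 3.21 and 3.14, with all 4 of the latter between 3.02 and 3.26 on Day 17. In MHC class II the 4-digit medians were 5.87, 5.74, 5.48 and 6.03, and the 3-digit medians 5.99, 5.73, 5.91 and 6.01, where Day 9 was the lowest. Mature B cell genes had 4.92, 4.62, 4.63 and 5.00, with 4.92, 4.61, 4.58 and 5.04 in the 4-digit and 4.93, 4.72, 4.89 and 4.91 in the 3-digit mice. These medians describe the 15 responders of Days 4, 9 and 24 and the 14 of Day 17 and were not tested.

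**Figure D5:**
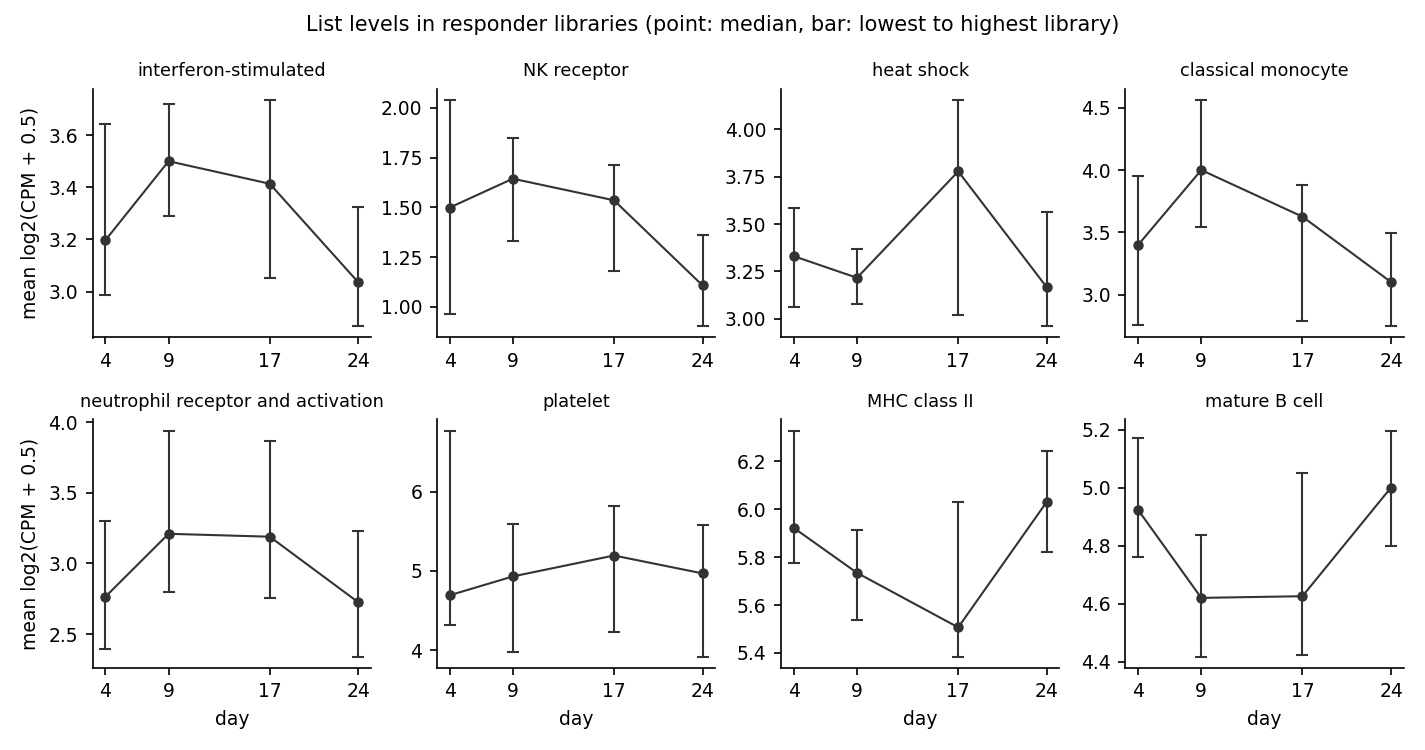
List scores, as mean log2(CPM + 0.5), of responder libraries on Days 4, 9, 17 and 24 (x axis), with points for medians and bars from the lowest to the highest library. The median heat shock score is highest on Day 17 (3.78), where the bar runs from 3.02 to 4.15 and the 4 mice of 3-digit tags lie at its lower end, and the median NK receptor score is lowest on Day 24 (1.11).

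The 2 series of ear tags were compared because they divide the responders into 10 and 4 pairs. Within the 10 mice of 4-digit tags 1578 genes rose and 1629 fell, and within the 4 of 3-digit tags 0 rose and 1 fell, with 649 and 674 at an unadjusted p of at most 0.05 in the same edgeR test. The change itself differed between the series at 63 genes (0.482%) that moved further up, and 339 (2.59%) that moved further down, in mice of 4-digit tags, of 13077 tested. The haemoglobin share did not pass the exact permutation test over the 14 mice (-1.002 points, p = 0.382, adjusted p = 0.574). It fell by 2.67 percentage points in the 4-digit mice (9 of 10 mice, exact permutation test, p = 0.0176) and differed by 3.16 points in the other direction in the 3-digit mice, where the smallest p the test allows is 0.125. Medians were negative in both series for the interferon-stimulated genes (-0.44 and -0.35), NK receptor genes (-0.44 and -0.49) and classical monocyte genes (-0.48 and -0.59). Those of several other lists were further from 0 in the 4-digit mice. Heat shock genes had -0.63 and -0.07, neutrophil receptor genes -0.76 and -0.26 and complement genes -0.56 and -0.20. Neutrophil granule genes had -0.67 and -0.18, with a higher score in 2 of the 4 3-digit mice, and cytotoxic effector genes -0.25 and -0.10. Some went the other way, for example basophil and eosinophil (0.27 and 0.93), naive T cell (0.10 and 0.20) and T cell receptor variable genes (-0.24 and -0.45). Beside the platelet, red cell maturation, immunoglobulin variable and mature B cell lists (the last with 0.52 and -0.0040), and 2 lists with 1 tested gene each, medians of opposite sign were found for haemoglobin (-0.34 and 0.72), T cell identity (-0.07 and 0.15), checkpoint (-0.14 and 0.04), immunoglobulin constant (0.24 and -0.10), dendritic cell (0.28 and -0.01), proliferation (-0.09 and 0.08), cytosolic ribosome (0.05 and -0.02), mitochondrial ribosome (0.02 and -0.17) and glycolysis genes (-0.13 and 0.12).

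Non-responders, with 29 mice bled on both days, were compared to see where the responders differed. In them 1062 genes rose (8.66%) and 1453 fell (11.8%) of 12269 tested, which is 20.5% in all. Of these calls 1195 were also calls in responders, 1194 of them in the same direction, which is 44.9% of the 2659 responder calls and 47.5% of the 2515 non-responder calls. Interferon-stimulated genes gave 0 rises and 46 falls of 50 in non-responders, NK receptor genes 12 falls and platelet genes 23 falls of 23. Falls there numbered 14 of 19 among neutrophil receptor, 16 of 21 among classical monocyte and 9 of 21 among heat shock genes, with 0 rises. Mature B cell genes gave 7 rises and 0 falls of 26, and MHC class II genes 1 rise and 1 fall of 11. Without the non-responder of the lowest Day 24 TMM factor (0.086), these 2 lists gave 14 and 7 rises, and 0 and 1 falls. The test of the difference in change called 67 genes (0.515%) with a more positive and 54 (0.415%) with a more negative change in responders, of 13018 tested. The counts were 141 and 98 without the non-responder whose Day 24 library had a TMM factor of 0.086, and 227 and 146 in DESeq2. Of the MHC class II list, 3 members were among them: H2-Aa changed by 0.61 in responders and 0.15 in non-responders (difference 0.46, adjusted p = 0.0439), H2-Oa by 0.65 and 0.18 (0.47) and H2-DMa by 0.44 and 0.08 (0.36). Of the heat shock list, Chordc1 (-0.60 and -0.16, difference -0.44) and Cacybp (-0.61 and -0.21, difference -0.40) had a more negative change in responders. NK receptor genes gave Klre1, with -0.87 and -0.26 (difference -0.60, adjusted p = 0.0413). Ear tags of 4 digits are carried by 10 of the 14 responders with a Day 17 library and 6 of the 29 non-responders, and with the tag series allowed its own change by day the difference called 0 genes in each direction in edgeR, with 788 and 709 at an unadjusted p of at most 0.05. The difference itself kept its sign in all 25 named genes that had been called and kept at least 75% of its size in 12 of them, for example H2afj (-0.90 to -0.87), and under 50% in 6. Among those 6 were H2-Oa (0.47 to 0.14), H2-DMa (0.36 to 0.14), Chordc1 (-0.44 to -0.09) and Cacybp (-0.40 to -0.17), and H2-Aa went from 0.46 to 0.25. The 25 genes had been called without that term in the same libraries, so that a kept sign is not a separate test. Response and tag series overlap in these mice, and the part of the series in the differences was not tested further.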

How the data were processed

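Bulk RNA-seq of mouse whole blood was used. The authors aligned reads with STAR to mm10 per the submitters' processing notes, and the counting tool and annotation are not given in the sources used here. The deposited values are estimated counts per gene (3.14% not whole), which were rounded before tests, and TPM values that the authors scaled with haemoglobin included. Gene identifiers match GENCODE M21 of GRCm38. Single-cell libraries of the study were not used here.

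Groups, days and ear tags came from the labels. One Day 17 library is labelled responder while the labels of the same mouse on other days say non-responder, and entered only an alternative. Genes were tested in edgeR 4.0.16 under R 4.3.3 (TMM, filterByExpr, glmQLFit, glmQLFTest) with mouse and day as terms over 28 libraries of 14 mice, and p-values were adjusted by Benjamini-Hochberg over all genes tested, with calls at an adjusted p of at most 0.05. Pairing came from the ear tag, since both libraries of a number are from the same animal. Residuals of a mouse's 2 libraries correlated at -0.238 to 0.407 (median 0.17), and those of different mice at -0.542 to 0.547 (median -0.000811). The difference between responders and non-responders was the interaction of day and response. Measures of libraries were tested by exact sign-flip permutation. Genes named are the 12 of smallest p in each direction with a fold change of at least 1.5, the 6 of smallest p in each of 38 lists and the 4 of smallest p in each direction of the interaction. Members and lists were chosen with earlier results of these data known. Alternatives used DESeq2 1.42.0, limma 3.58.1 with log2(TPM + 1) and log2(TPM + 0.1), other filters, tag series and single mice left out. Depth was 26058958 to 63960878 counts per library, and how counting error compares with the spread between mice was not tested. A few genes are not reported here.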

Additional observations from a re-analysis of the deposited data

Results flagged for a closer look

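The change from Day 17 to Day 24 differed between responders and non-responders at 25 of the named genes, by the interaction of day and response in edgeR. Over all 13018 genes tested, 0.515% had a more positive and 0.415% a more negative change in responders. Gys1, Crtc1, Nf1, Rbpj, 5330438D12Rik, Dcun1d5, Slc25a45 and Psip1 were named for their small p in this same interaction. The count of 25 was thus partly set by the choice of genes and is not a separate result. Each gene value here is the log2 fold change in responders minus that in non-responders, and the adjusted p lay between 0.0341 and 0.0493. More positive in responders were Mast4 (0.36), Sgsh (0.36), Angel1 (0.48), Stac2 (0.42), Wdfy4 (0.33), H2-Aa (0.46), H2-Oa (0.47), H2-DMa (0.36) and Prpf8 (0.23). So were Gys1 (0.48), the muscle-type glycogen synthase gene, Crtc1 (0.38), a coactivator of CREB, Nf1 (0.36), a negative regulator of Ras, and Rbpj (0.32), the transcription factor of Notch signalling. More negative in responders were Lman2l (-0.49), Klre1 (-0.60), H2afj (-0.90), Cacybp (-0.40), Srsf7 (-0.49), Chordc1 (-0.44), Nupr1 (-0.83) and P4ha1 (-0.45), together with 5330438D12Rik (-0.81), Dcun1d5 (-0.47), Slc25a45 (-0.39) and Psip1 (-0.26). Psip1 was not called within responders, where its log2 fold change was -0.14, and rose by 0.12 in non-responders. With the day allowed to act differently in the 2 tag series, 0 of these genes passed the threshold. The difference kept at least 75% of its size in 12 of the 25, such as 5330438D12Rik (-0.81 to -0.82) and Crtc1 (0.38 to 0.36), 50% to 75% in 7 and under 50% in 6, such as Chordc1 (-0.44 to -0.09) and H2-DMa (0.36 to 0.14). Since the 25 were called in the same libraries without that term, the kept size is not a separate test.

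Within responders, the change was more positive in the 4-digit mice at 0.482% and more negative at 2.59% of 13077 genes tested. It differed between the tag series at 21 of the named genes (4-digit minus 3-digit, edgeR, adjusted p between 0.00471 and 0.0465). More negative in the 4-digit mice were the platelet genes Nrgn (-0.89), Pf4 (-0.75), Clec1b (-0.95), Gp9 (-0.90) and Gp5 (-0.80) and the erythroid and megakaryocyte factor genes Nfe2 (-0.96), Tal1 (-1.01) and Gata2 (-1.35). So were Mxd1 (-0.82), Lat (-0.51), Trat1 (-0.85), Hsp90b1 (-0.45), Fosl2 (-0.96), Chordc1 (-0.63), Stip1 (-0.83) and Slc2a3 (-0.88). More positive in the 4-digit mice were Fcer2a (0.59), Pax5 (0.57), Tcf4 (0.49), H2-Oa (0.84) and H2-DMa (0.51).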

How the results depend on the processing

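Of the 175 named genes that were called, DESeq2 called 175, the fit without the mouse as a replicate block 163 and the fit with the length trend removed 157, but limma called 7 on log2(TPM + 1) and 8 on log2(TPM + 0.1), and edgeR called 115 and 102 in the sets of Day 17 libraries and 0 in the 3-digit mice. Most of these genes were named for a small p in the main fit, so that other fits to the same libraries are likely to keep them. Over all 2659 calls DESeq2 kept 2628 and the fit with the length trend removed 1887. Totals of higher and lower genes were 1464 and 1473 in DESeq2, 1371 and 1344 without the replicate block, which kept 2347 of 2659 calls, and 1578 and 1629 in 4-digit mice. Leaving out 1 mouse in turn gave 995 to 1508 higher and 1016 to 1684 lower. They changed by more than 1.5 times in limma on log2(TPM + 1), with 6 and 15, on log2(TPM + 0.1), with 6 and 18, in the 3-digit mice, with 0 and 1, at a fold change of at least 1.5, with 75 and 355, and in the sets of Day 17 libraries, an alternative chosen after seeing the data, with 662 higher in numbers 90 to 95 and 342 higher and 548 lower in numbers 96 to 103. Fewer mice or a stricter limit enter the last 4, and for TPM the cause was not tested.

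In the 3-digit mice the sign turned for Nfe2 (0.21), Clec1b (0.16), Gp9 (0.14), Gp5 (0.12), Fosl2 (0.11), Jun (0.09), Atf4 (0.068), Ndrg1 (0.16), Tcf4 (-0.054), Egr3 (-0.050) and Flt3 (-0.0096), and on log2(TPM + 1) for Nr1d2 (-0.0037), and the cause was not tested. The difference between responders and non-responders gave 227 positive and 146 negative genes in DESeq2, 102 positive without the replicate block, and 141 and 98 without the non-responder whose Day 24 library had a TMM factor of 0.086. It gave 0 and 0 with day by tag series as a term. The haemoglobin share differed by -2.67 points in 4-digit and 3.16 points in 3-digit mice, and over single mice left out by -1.69 to -0.575. Counts of other genes were higher by 1508280 in 3-digit mice and by 2083100 to 2875470 with 1 mouse left out. The number of genes with a count differed by -606.75 in 3-digit mice, and by -16.5 to 239 with 1 mouse left out (-4.08 without responder 11), and TMM factors by -0.499 and by -0.0122 to 0.124 (-0.00167 without responder 7 and -0.00785 without responder 11).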
